A study of Mus musculus with 22 samples.

Results

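Expression of 9 genes that mark astrocytes was followed through RNA sequencing of CD11b+ cells from the brains of CF-1 mice. The genes were Gfap, Aqp4, Slc1a2, Slc1a3, Aldh1l1, Gja1, Sox9, Aldoc and S100b, and they were chosen by name from the 56691 genes that the count tables list by Ensembl identifier. Each identifier was present in both tables, and all 9 genes passed the filter on low counts in every comparison. The animals were outbred CF-1 wildtype mice. In the HIE group (hypoxic-ischemic encephalopathy), the dam was given LPS, a component of the bacterial cell wall that triggers inflammation, and the pups later went through a period of hypoxia. The study collected whole brains, dissociated them and enriched microglia on CD11b-coated magnetic beads, so that RNA of astrocytes reached a library only with what passed the beads. Which cells the transcripts of each member came from was not tested. The sequencing covered 20 animals in 5 groups of 4, from 22 libraries, since 2 HIE animals of P14 had 2 libraries each, which were summed. The HIE P7 group held the animals N5-3, N5-4, N8-3 and N8-4, all labelled male. The early controls P6H63-7, P6H63-8, P6H55-7 and P6H55-12 carry the day labels P8, P9, P10 and P11 in that order, with 2 males and 2 females, whereas the methods of the study place both early groups on P7. HIE P14, control P14 and hypoxia P14 each had 2 males and 2 females, and what the hypoxia animals received beyond the label is not given in the sources used here. Animals whose names share a prefix are called a litter here, although the labels do not define the prefix. Every litter gave 2 animals to 1 treatment group, so treatment and litter cannot be told apart. By their labels the early groups also differ in day, so treatment and day label cannot be told apart there.

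Astrocytes support neurons by clearing glutamate and potassium from the extracellular space, by moving water at the vessel wall and by supplying metabolic substrates. Their marker genes cover these tasks. Gfap encodes the intermediate filament of astrocytes and Aqp4 the water channel of their endfeet. Slc1a2 and Slc1a3 encode the glutamate transporters, of which Slc1a3 is already active in radial glia and Slc1a2 increases as astrocytes mature. Aldh1l1 encodes a folate enzyme and Aldoc the brain form of aldolase in glycolysis. Gja1 encodes the main gap junction protein of astrocytes, Sox9 a transcription factor of glial development, and S100b a calcium-binding protein. Microglia and other myeloid cells carry CD11b on their surface, and astrocytes are not known to do so.

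The sequence before the transcription start is shown for the genes on which the results turn. Gfap differed most and Slc1a2 least between the early control litters, and their ratio separated the early animals from those of P14. The windows are the 250 bases before the start of the canonical transcript, read from GRCm39 with the GENCODE M39 annotation, 5′ to 3′ on the strand of the gene. Gfap lies on the minus strand at chr11:102778159-102791738, and its window is chr11:102788186-102788435, which overlaps no annotated exon but lies inside the span of longer Gfap transcripts. Slc1a2 lies on the plus strand at chr2:102488574-102621129, and its window, chr2:102488324-102488573, overlaps no annotated exon. Slc1a3, the gene that departed most from the other members, lies on the minus strand at chr15:8663604-8741595. Its own window overlaps exons of other transcripts, so only 29 bases are given, chr15:8740369-8740397. Capitals mark a motif match, and the Gfap and Slc1a2 windows held none.
Gfap: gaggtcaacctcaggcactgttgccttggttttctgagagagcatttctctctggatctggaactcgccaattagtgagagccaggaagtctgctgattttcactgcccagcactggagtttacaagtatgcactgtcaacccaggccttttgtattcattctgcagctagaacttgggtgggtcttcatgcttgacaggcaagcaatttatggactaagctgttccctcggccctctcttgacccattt
Slc1a2: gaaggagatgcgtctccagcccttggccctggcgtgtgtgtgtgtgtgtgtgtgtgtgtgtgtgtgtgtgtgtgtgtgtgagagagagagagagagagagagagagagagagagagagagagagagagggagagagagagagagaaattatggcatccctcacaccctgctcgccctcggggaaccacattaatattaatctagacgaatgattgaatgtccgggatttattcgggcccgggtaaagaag
Slc1a3: ttcaggatccTTCCAAGAAatttcagtta
Both strands of every window were searched for 4 motifs, and the same windows of 21630 protein-coding genes gave the background. The SOX motif was AACAAT, found in 9.62% of these windows. For STAT factors the letters TTCNNNGAA were used, found in 7.73%. The NFI site was taken as TTGGCA, found in 12.2%. The TATA box was taken as TATAAA, found in 11.9%. In the Slc1a3 window, the STAT letters stood at positions -111 to -103 from the start and read the same on both strands, and a TATA match stood on the opposite strand at -176 to -171. Of the other windows, those of Sox9 and Aldoc held an NFI match and that of Aldh1l1 a TATA match, and no match overlapped one of another motif. The windows of Slc1a2 and Gfap held 8 and 2 CpG sites, where the median over all windows was 8. A match in letters is a description and does not show that a factor binds there.

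The total counts per animal were 29751486 to 76166750 in the P14 table and 70191541 to 83469037 in the early table. Each member had at least 140 counts in every animal, far above the 3 counts taken as the smallest level told from 0, which covers counting error only. Levels are given in CPM, the counts divided by the library size and set to a common scale, after TMM scaling for RNA composition. The TMM factors were computed within each table, so a level on P14 and a level in an early animal were scaled separately, and the day and the table cannot be told apart. The enrichment was compared with 15 microglia markers such as P2ry12 and Csf1r. Their summed level was 16576 to 34616 CPM in every animal outside litter P6H63, but 2573 CPM in P6H63-7 and 1660.4 CPM in P6H63-8. The 9 astrocyte genes summed to 4467 CPM and 5496 CPM in these same pups, or 174 and 331 CPM for each 100 CPM of microglia markers. In every other animal this figure lay between 4.43 and 13.4. The P6H63 pups stood apart by more than the whole range of the other animals, and the comparisons that use them as controls are also given without them below. In bulk RNA, a difference in an astrocyte gene can come from fewer cells or from less RNA per cell, and these cannot be told apart.

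**Figure D1:**
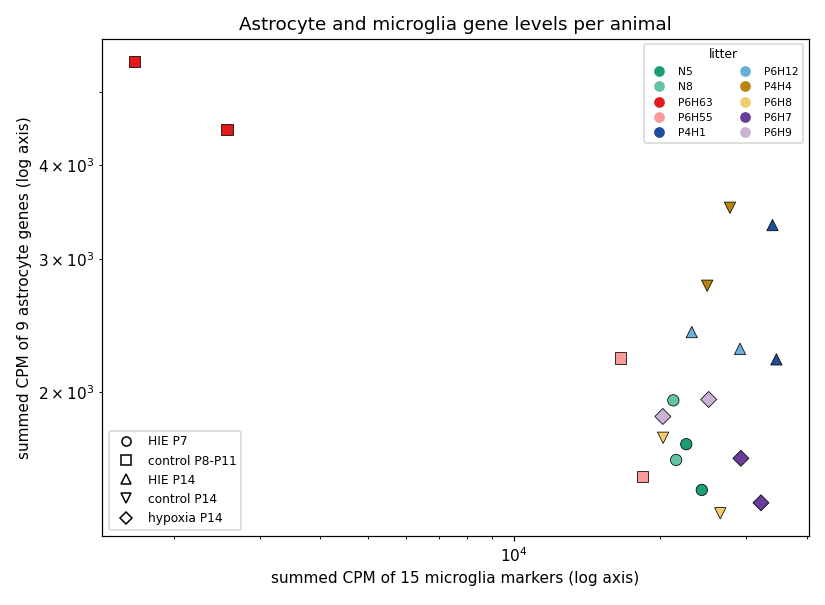
Summed CPM of the 9 astrocyte genes against summed CPM of 15 microglia markers, both on log axes, 1 point per animal with shape for group and colour for litter. The 2 control pups of P6H63 sit alone at the upper left, at 2573 and 1660.4 CPM of microglia markers.

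Gfap was the member with the widest spread, from 24.9 to 1655 CPM. Where both animals of a litter are given, here and for the other genes, the order is N5-3 and N5-4, N8-3 and N8-4, P6H55-7 and P6H55-12, P6H63-7 and P6H63-8, P4H4-7F and P4H4-8M, P6H8-7M and P6H8-8F, P4H1-1M and P4H1-6F, P6H12-11M and P6H12-14F, P6H7-16M and P6H7-8F, and P6H9-14M and P6H9-15F. In the HIE P7 pups Gfap stood at 329.6 and 317 CPM in N5 and at 355 and 256 CPM in N8. The early controls had 349 and 496 CPM in P6H55 and 1448 and 1655 CPM in P6H63. The P6H55 controls thus overlapped with the HIE pups, and only the P6H63 controls were far above them. On P14 Gfap was 338 and 159.5 CPM in the P4H4 controls and 65.9 and 90.8 CPM in the P6H8 controls. The HIE animals had 195 and 89.8 CPM in P4H1 and 67.7 and 85.1 CPM in P6H12, and the hypoxia animals 24.9 and 81.9 CPM in P6H7 and 106 and 97.4 CPM in P6H9. All 3 groups of P14 overlapped, with the highest value in a control and the lowest in a hypoxia animal.

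Aqp4 was likewise highest in the P6H63 pups among the early animals. It was 314 and 281 CPM in N5, 273 and 231 CPM in N8, 281 and 393 CPM in P6H55, and 861 and 1041 CPM in P6H63. On P14 the controls had 349.6 and 282 CPM in P4H4 and 128 and 174 CPM in P6H8. HIE animals had 348 and 141 CPM in P4H1 and 123 and 188 CPM in P6H12, and the hypoxia animals 58.0 and 131 CPM in P6H7 and 200.3 and 158 CPM in P6H9. The Aqp4 groups overlapped on P14, and within the controls both P4H4 animals were above both P6H8 animals.

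The glutamate transporters had patterns of their own. Slc1a2 was 312 and 252 CPM in N5, 263 and 178 CPM in N8, 254 and 431 CPM in P6H55, and 431 and 651 CPM in P6H63, so that P6H55-12 and P6H63-7 were level. On P14 Slc1a2 reached 1183 and 936 CPM in P4H4, 477 and 471 CPM in P6H8, 653 and 345 CPM in P4H1, 377 and 576 CPM in P6H12, 421 and 837 CPM in P6H7, and 498 and 585 CPM in P6H9. The Slc1a2 groups of P14 overlapped, and the 2 highest animals were the P4H4 controls. Slc1a3 was 296 and 242 CPM in N5, but 579 and 550.1 CPM in N8, and the early controls had 225 and 312 CPM in P6H55 and 499.7 and 604 CPM in P6H63. The N8 pups therefore stood with the P6H63 controls for Slc1a3, and the N5 pups with P6H55. On P14 Slc1a3 was 1649.85 and 1385 CPM in P4H1 and 1494 and 1243 CPM in P6H12. The controls had 1082 and 909 CPM in P4H4 and 810.5 and 321 CPM in P6H8, and the hypoxia animals 779 and 306 CPM in P6H7 and 852 and 727 CPM in P6H9. All 4 HIE animals of P14 were above all 8 control and hypoxia animals.

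Sox9 had 59.2 to 76.6 CPM in the HIE P7 pups, 70.8 and 103 CPM in P6H55, and 207 and 262 CPM in P6H63. On P14 it was 15.7 to 21.3 CPM in controls and 13.1 to 23.5 CPM in HIE animals, and in the hypoxia animals 3.94 and 8.61 CPM in P6H7 and 12.1 and 20.3 CPM in P6H9. The P6H7 animals were thus the lowest of all for Sox9. Gja1 was 233 to 301 CPM in HIE P7, 272 and 329 CPM in P6H55, and 764 and 950.5 CPM in P6H63, and on P14 it was 126 to 237 CPM in controls, 129 to 236 CPM in HIE and 84.4 to 155 CPM in hypoxia. Aldh1l1 was 27.3 to 34.6 CPM in HIE P7, 31.2 and 51.2 CPM in P6H55, and 81.7 and 103 CPM in P6H63. On P14 Aldh1l1 was 15.4 to 40.8 CPM in controls, 10.8 to 33.85 CPM in HIE and 6.02 to 17.8 CPM in hypoxia. Aldoc was 42.9 to 64.1 CPM in HIE P7, 50.1 and 93.0 CPM in P6H55, 144 and 189 CPM in P6H63, and on P14 76.1 to 205 CPM in controls, 48.4 to 143 CPM in HIE and 38.7 to 92.8 CPM in hypoxia. S100b was 10.2 to 15.0 CPM in HIE P7, 11.1 and 12.0 CPM in P6H55, and 31.1 and 40.0 CPM in P6H63. On P14 S100b was 24.3 to 61.5 CPM in controls, 20.9 to 51.7 CPM in HIE and 9.98 to 34.9 CPM in hypoxia. The same animals recurred at the ends of these ranges. P6H63-8 was the highest early animal for 9 of 9 genes, P4H4-7F the highest animal of P14 for 7, and P6H7-16M the lowest of P14 for 7.

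**Figure D2:**
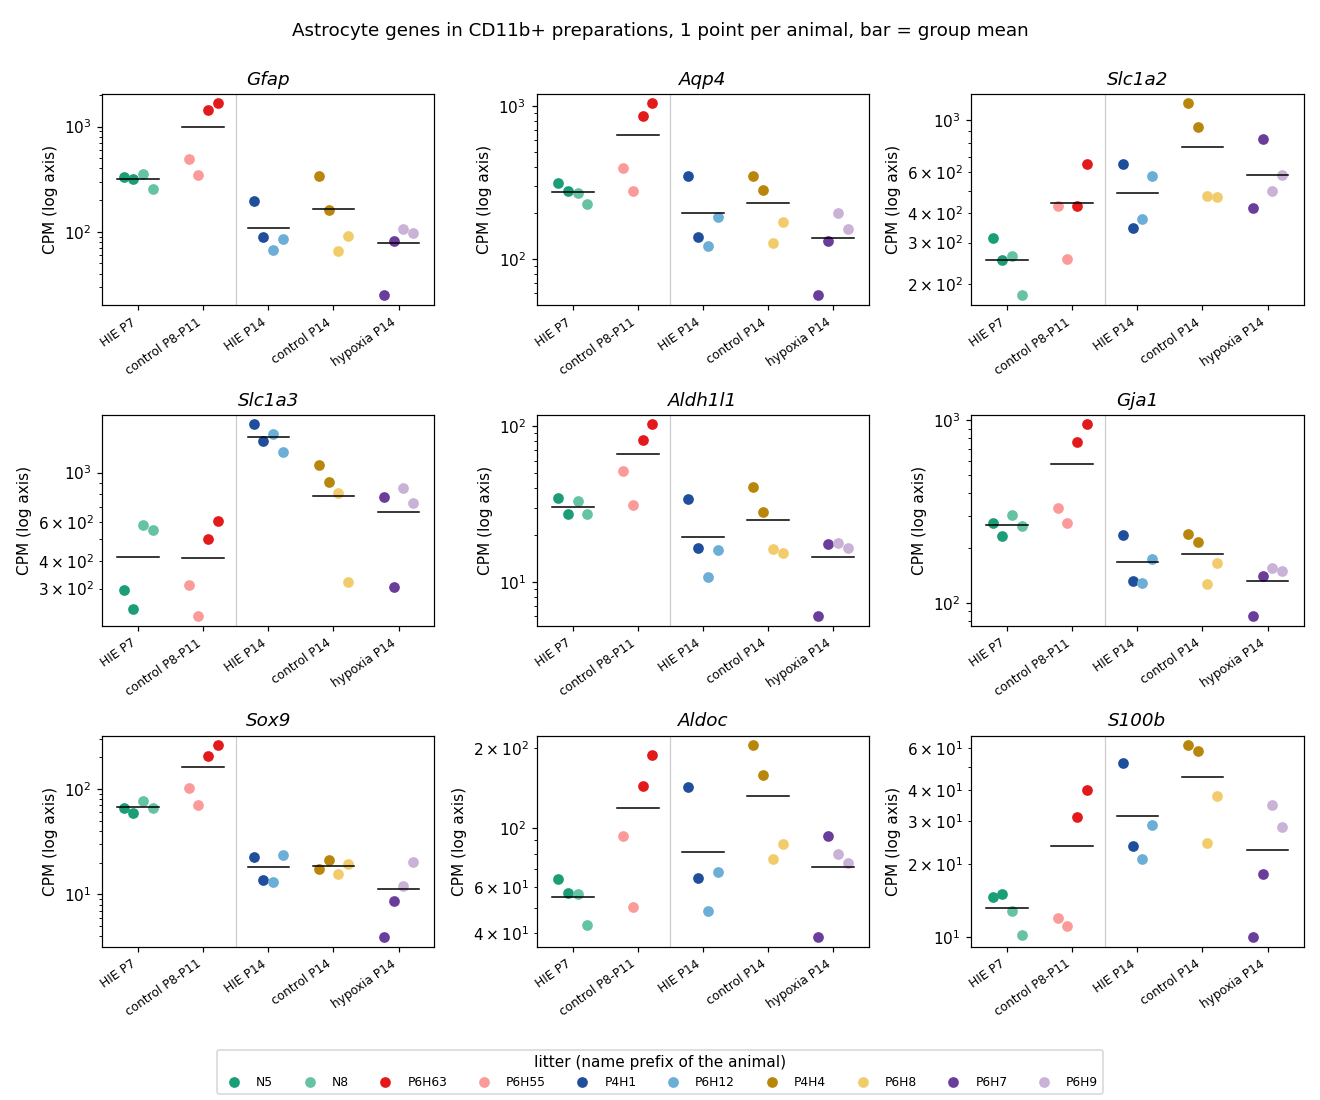
CPM of each astrocyte gene on a log axis, 1 point per animal coloured by litter, with a bar at the mean of each group of 4 and a line between the separately scaled early and P14 tables. P6H63 stands above the other early litters for Gfap, Aqp4, Gja1, Sox9, Aldh1l1, Aldoc and S100b, and the 4 HIE animals of P14 stand between 1243 and 1649.85 CPM for Slc1a3.

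Levels of different genes were compared per kilobase of the canonical transcript. In HIE P7, Gfap (109 ± 14.6 CPM per kilobase, SD, n = 4) and Slc1a3 (99.3 ± 41.1) led and did not differ beyond their spread. Gja1 (57.0 ± 6.03) and Aqp4 (53.3 ± 6.60) came next and were likewise within each other's spread. In the early controls Gfap led with 343 ± 229.5 CPM per kilobase, a mean that the P6H63 pups raised, since P6H55 alone gave 147 and P6H63 539. On P14 Slc1a3 was first in all 3 groups, with 344 ± 41.0 in HIE, 186 ± 77.8 in controls and 159 ± 58.4 CPM per kilobase in hypoxia. Slc1a2 was second in each of these groups, at 40.6 ± 12.5, 63.8 ± 29.3 and 48.7 ± 15.0 CPM per kilobase. In control P14 this rank was not resolved, as Gfap (56.9 ± 42.7) and Aldoc (47.3 ± 22.0) lay within the spread of Slc1a2. In HIE P14 the ranks below Slc1a3 were close, and Slc1a2, Aqp4 (38.7 ± 19.8) and Gfap (38.0 ± 20.1) could not be told apart by their spread. Aldh1l1 and Sox9 were at the bottom on P14, at 4.60 ± 2.39 and 4.37 ± 1.36 CPM per kilobase in HIE animals.

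The early comparison asked whether HIE changed these genes soon after the hypoxia. All 9 astrocyte genes had a lower estimate in HIE P7 pups than in the early controls, but none passed the test, and Slc1a3 was near 0. Gfap had the largest estimate, with 314 ± 42.1 CPM (SD, n = 4) in HIE and 987 ± 660.2 CPM (SD, n = 4) in controls. Its log2 fold change was -1.68 ± 0.49 (SE) with an adjusted p-value of 0.150 in edgeR's quasi-likelihood test. Log2 fold changes of Sox9 (-1.29), Aqp4 (-1.26), Aldh1l1 (-1.16), Aldoc (-1.15) and Gja1 (-1.14) lay close together, and those of S100b (-0.87) and Slc1a2 (-0.85) were smaller. Slc1a3 stood apart with -0.01 ± 0.39 (SE), as HIE and control means were 417 and 410.1 CPM. With edgeR 0 of 9 members were called at an adjusted p-value under 0.05, against 0.0666% of the 22517 genes tested. At an unadjusted p-value under 0.05 there were 7 of 9, against 27.3% of genes, and an estimate below 0 was found for 56.5% of genes. DESeq2 called 6 members, all lower, against 9.1% of genes called lower. Every member's HIE and control values overlapped, where 7.04% of genes were lower without overlap.

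Set against each control litter in turn, the HIE pups gave different answers. These litters also differ in day label (P8 and P9 in P6H63, P10 and P11 in P6H55), while the HIE pups carry P7. Against the P6H63 controls alone, 8 of 9 members were lower with edgeR, all but Slc1a3, with log2 fold changes from -1.10 for Slc1a2 to -2.30 for Gfap, where 58.5% of all genes were called and 30.8% were called lower. Against the P6H55 controls alone, 0 of 9 members were called, where 0.112% of genes were, and the log2 fold changes lay between -0.47 for Slc1a2 and 0.61 for Slc1a3. The log2 fold change of Gfap was -2.30 in the first of these fits and -0.45 in the other, and that of S100b was -1.43 and 0.16. Without the P6H55-7 control, 7 members were called lower, against 15.8% of genes. The sex label was also entered as a covariate, which is needed because all HIE P7 pups were labelled male. With it 0 members were called, against 11 of 24259 genes. The log2 fold changes then lay between -1.53 and 0.19, with a median of -0.905, and rest on the male controls alone. The 15 microglia markers moved the other way, with a median log2 fold change of 3.44 against P6H63 and 0.28 against P6H55. Their part in the astrocyte result was not tested.

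**Figure D3:**
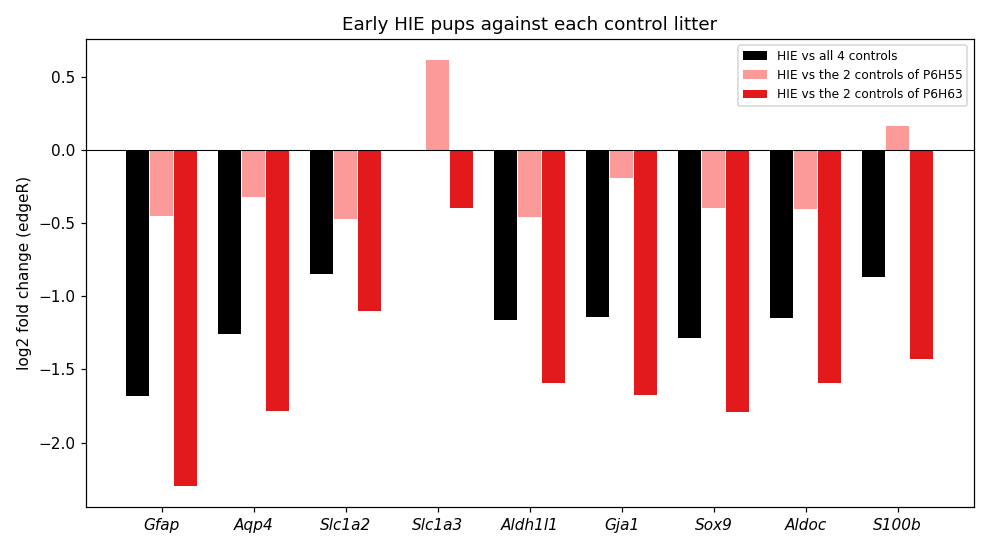
Log2 fold change of each astrocyte gene in the 4 HIE P7 pups against all 4 early controls (black), the 2 controls of P6H55 (pink) and the 2 controls of P6H63 (red). Bars of P6H55 stay between -0.47 and 0.61, while those of P6H63 reach -2.30 for Gfap.

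The early control litters were then compared with each other, 2 pups against 2, whose day labels also differ (P8 and P9 against P10 and P11). Astrocyte genes were higher in P6H63, and microglia markers were lower. In edgeR 8 of 9 members were called higher, against 20.4% of 23524 genes, or 37.4% called in either direction. Log2 fold changes were 1.84 ± 0.22 (SE, adjusted p = 0.00286) for Gfap, 1.59 ± 0.17 (SE, adjusted p = 0.00227) for S100b, 1.47 ± 0.18 (SE, adjusted p = 0.00300) for Gja1 and 1.46 ± 0.21 (SE, adjusted p = 0.00488) for Aqp4. Sox9 (1.39), Aldoc (1.18), Aldh1l1 (1.13) and Slc1a3 (1.00) were also higher. Slc1a2 did not pass, at 0.62 ± 0.31 (SE, adjusted p = 0.165). Both P6H63 pups were above both P6H55 pups for each member, a pattern shared by 39.5% of genes. For Slc1a2 this rested on 431.009 CPM in P6H63-7 against 430.988 CPM in P6H55-12, which are level. All 15 microglia markers tested were lower, with a median log2 fold change of -3.09, where 4004 of 23524 genes were called lower. Without P6H63-8, 5 members were called, against 17.8% of genes called in either direction, as Slc1a3, Aldh1l1 and Aldoc no longer passed, and without P6H55-12 all 9 were called, against 30.4% of genes. DESeq2 on all 4 pups called 8 members, against 40.5% of genes. Of all genes, 4794 were higher and 4004 lower under TMM. Scaling by library size alone gave 7286 higher and 2350 lower and moved the median of all genes to 0.31.

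The later comparison asked whether HIE left a difference on P14. Slc1a3 was the one member with a higher estimate in HIE, and the other 8 were lower or near 0, but none passed the test. Slc1a3 was 1443 ± 172 CPM (SD, n = 4) in HIE and 780.5 ± 326 CPM (SD, n = 4) in controls. Its log2 fold change was 0.87 ± 0.30 (SE, adjusted p = 0.357), and its groups did not overlap, which held for 2.84% of the 20934 genes. Estimates of the other members ranged from -0.72 ± 0.38 (SE) for Aldoc and -0.67 ± 0.32 (SE) for Slc1a2 to -0.04 ± 0.21 (SE) for Sox9, and the groups of each overlapped. With edgeR 0 of 9 members were called, against 0.00478% of genes, 1 of 9 had an unadjusted p-value under 0.05, against 9.87% of genes, and DESeq2 called 0, against 2.34% of genes. The estimate was below 0 for 8 of 9 members and for 47.9% of genes. The direction of Slc1a3 was the same under each alternative run, where its lowest adjusted p-value was that of DESeq2, 0.0888.

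Hypoxia P14 animals were compared with the same P14 controls. All 9 members had a lower estimate in hypoxia, with a median log2 fold change of -0.78 where the median of all genes was -0.01, and none passed the test. The estimates were -1.08 ± 0.55 (SE) for Gfap, -1.004 ± 0.39 (SE) for S100b, -0.89 ± 0.35 (SE) for Aldoc, and -0.80 ± 0.39 (SE) for Aldh1l1, and adjusted p-values were 0.500 or above for every member. With edgeR 0 of 9 were called, against 0.00955% of genes, 2 had an unadjusted p-value under 0.05, against 9.53%, and DESeq2 called 0, against 0.783%. Over all genes 52.6% had an estimate below 0. The hypoxia litters were all named P6H, and the controls included both kinds. Against the P6H8 controls alone, the log2 fold changes lay between -0.66 for Sox9 and 0.29 for Slc1a2, with a median of -0.15. In that fit 0 members were called, as were 0 of all 22026 genes tested. In HIE against hypoxia animals, Slc1a3 was again the member with the largest estimate, 1.09 ± 0.27 (SE, adjusted p = 0.999), and its groups did not overlap, as for 1.68% of 20949 genes. No other member had groups that did not overlap, and Slc1a2 was the one member with an estimate below 0, as were 51.9% of genes. With edgeR 0 of 9 were called, against 0.00955% of genes, 1 had an unadjusted p-value under 0.05, against 4.53%, and DESeq2 called 0, against 0.0716%, with a lowest adjusted p-value of 0.0542, that of Slc1a3. Both Slc1a3 estimates use the same HIE animals. With the HIE animals of P6H12 only, the Slc1a3 estimate for HIE over hypoxia was 1.02.

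**Figure D4:**
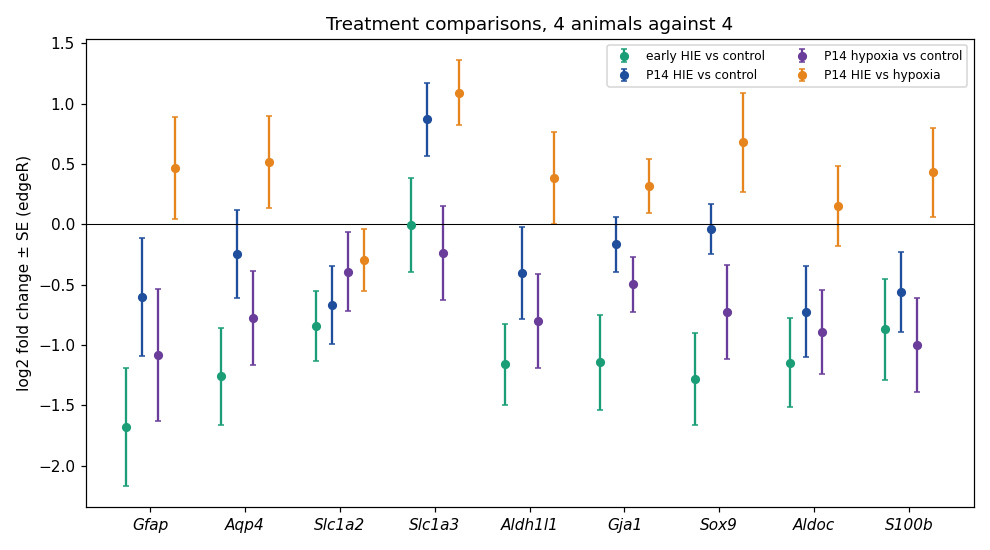
Log2 fold change with its SE for each astrocyte gene in the 4 treatment comparisons, 4 animals against 4, from edgeR. Slc1a3 is the gene with a positive estimate in HIE against control on P14 (0.87) and the highest estimate against hypoxia (1.09), and no gene passed an adjusted p-value of 0.05.

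On P14 the 2 kinds of litter name, P4H and P6H, were balanced over HIE and control animals, so that they could be compared with treatment in the fit. All 9 members had a lower estimate in the P6H animals, with a median log2 fold change of -0.75. The lowest were Gfap at -1.26 ± 0.31 (SE, adjusted p = 0.0643), Aldh1l1 at -0.996 ± 0.23 (SE, adjusted p = 0.0587) and Aldoc at -0.98 ± 0.23 (SE, adjusted p = 0.0589), whereas Sox9 was -0.05 ± 0.21 (SE). An estimate below 0 was found for 50.7% of genes. Aldh1l1 was lower without overlap, as were 7.8% of genes. With edgeR 0 of 9 were called, against 0.65% of 21537 genes, while 6 had an unadjusted p-value under 0.05, against 26.7%. DESeq2 called 5 members lower (Gfap, Aqp4, Aldh1l1, Aldoc and S100b), against 5.85% of genes. Without the P4H1-6F animal edgeR called the same 5, against 1.24% of genes, and without a filter on low counts it called 8 lower, against 3.91% of genes. The unfiltered fit left Gfap at -1.26 but moved its adjusted p-value in edgeR from 0.0643 to 2.6e-31. Calls over all genes rose from 140 to 3255, so the larger count of members did not come from larger estimates. The reason was not tested. Sox9 changed sign under library size scaling, to 0.067. That scaling moved the split of all calls from 51 higher and 89 lower to 714 higher and 142 lower. What the name prefix stands for is not given in the labels.

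Whether the HIE effect differed between the early animals and P14 was tested in 1 fit over both tables. All 9 members had a lower early than late effect, from -1.25 ± 0.45 (SE, adjusted p = 0.242) for Sox9 and -1.09 ± 0.74 (SE, adjusted p = 0.522) for Gfap to -0.18 ± 0.47 (SE, adjusted p = 0.885) for Slc1a2. With edgeR 0 of 9 passed, against 0.00405% of 24693 genes, 1 had an unadjusted p-value under 0.05, against 13.9%, and DESeq2 called 0, against 2.73%. The difference was below 0 for 53.4% of genes. Without the P6H55-7 control Sox9 was called, at -1.48, where 3.6% of genes were called lower. With the P6H55 pups as the only early controls, 0 members were called, as were 0 of all 25848 genes tested. The differences then lay between -0.35 for Sox9 and 0.72 for S100b, with Gfap, Slc1a2, Aldoc and S100b above 0.

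Ratios within an animal do not depend on the scaling of a table. The Slc1a2 to Gfap ratio in CPM was 0.948 and 0.795 in N5, 0.741 and 0.696 in N8, 0.729 and 0.870 in P6H55, and 0.298 and 0.393 in P6H63. On P14 it was 3.50 and 5.87 in P4H4, 7.24 and 5.19 in P6H8, 3.36 and 3.84 in P4H1, 5.57 and 6.76 in P6H12, 16.95 and 10.2 in P6H7, and 4.69 and 6.01 in P6H9. Every animal of P14 was above every early animal. Between control P14 and the early controls, the log2 ratio differed by 3.34. Because these groups did not overlap, a two-sided exact permutation test could only return its smallest p-value (0.0286, n = 4 per group). That p-value therefore adds nothing to the separation, and the test treated animals of the same litter as independent. The ratio was chosen with earlier results of these data known. Against the P6H55 controls alone the difference was 2.73. Since all P14 animals are in 1 table and all early animals in the other, the day cannot be told apart from the table. S100b relative to Gfap moved the same way, from 0.0215 to 0.0473 in early animals and from 0.182 to 0.417 on P14. Both ratios are divided by Gfap, so they are not independent of each other.

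**Figure D5:**
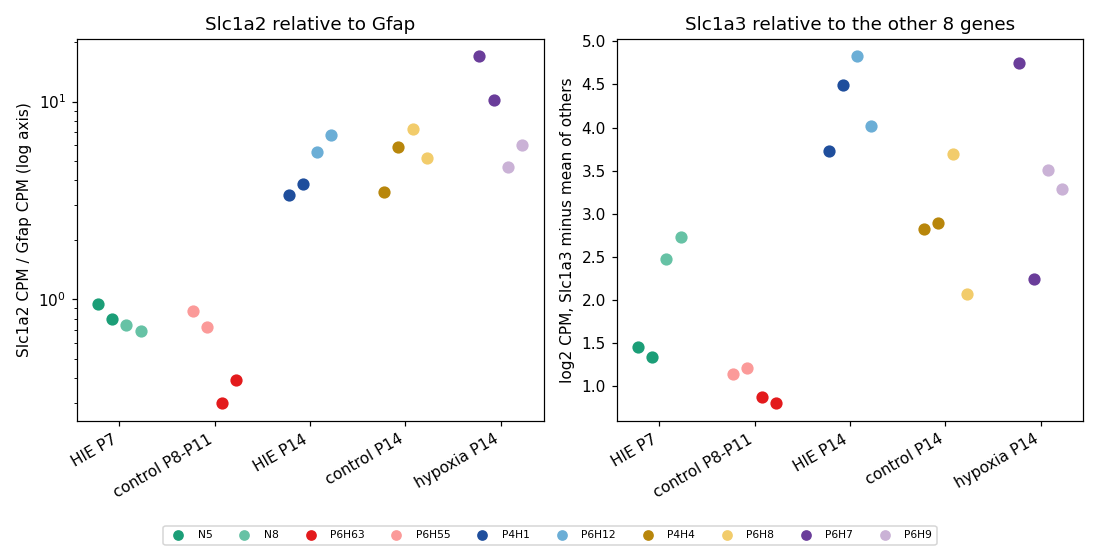
Left, the ratio of Slc1a2 to Gfap CPM on a log axis, 1 point per animal coloured by litter. Right, log2 CPM of Slc1a3 minus the mean log2 CPM of the other 8 astrocyte genes. The ratio is below 1 in every early animal and 3.36 or more on P14, and Slc1a3 stands highest over the others in P6H12-11M (4.83) and P6H7-16M (4.75).

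Slc1a3 was the member that moved least with the others. Across the 12 animals of P14, the 36 pairs of members had a median Pearson r of 0.79 on log2 CPM, whereas the 8 pairs with Slc1a3 had a median of 0.21. In the 8 early animals, the medians were 0.94 over all pairs and 0.45 with Slc1a3, and in the 6 early animals outside P6H63 they were 0.69 and -0.29. These are descriptions without a test, over animals that share litters and tables. The log2 CPM of Slc1a3 exceeded the mean of the other 8 genes by 0.79 to 1.20 in early controls, 1.33 to 2.73 in HIE P7, 2.06 to 3.69 in control P14, 3.72 to 4.83 in HIE P14 and 2.23 to 4.75 in hypoxia P14. Within HIE P7 the N8 pups (2.47 and 2.73) were above the N5 pups (1.45 and 1.33). This measure was chosen after the values were seen and was not tested. The cells that gave the Slc1a3 transcripts were not identified. An annotated antisense gene overlaps exons of Slc1a3, as it does for Slc1a2, Aldh1l1, Gja1 and Sox9. The kit keeps the strand, but whether counting used it is not given in the sources used here.

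The genes whose pattern was most like the mean of the members were found among 12897 candidates by the smaller of the Pearson r in the 12 animals of P14 and the 8 early animals. The first 10 were Fads2 (0.98), Tst, Abat, Fam181b, Gldc, Igdcc4, Hepacam, Chst2, Gpr37l1 and Gpm6b (0.97). In the 6 early animals outside P6H63 the r of these 10 genes with the members was 0.53 to 0.98. Of these, Gldc, Hepacam and Gpr37l1 belong to the list of other mature astrocyte genes and Abat to the list of glutamate and GABA genes. Fads2, a fatty acid desaturase, was 147 CPM in HIE P7, 317 CPM in early controls, 101 CPM in HIE P14, 113 CPM in control P14 and 73.5 CPM in hypoxia P14, as means of 4 animals.

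Other genes of the astrocyte were taken from 4 lists. In the early control litters, 24 of 30 other mature astrocyte genes were higher in P6H63, led by Ntsr2, Gjb6 and Phkg1 with log2 fold changes of 1.76, 1.59 and 1.4998, and none was lower, where 20.4% of all genes were called higher. Of 20 immature astrocyte and radial glia genes 16 were higher, led by the transcription factors Pax6 (1.64) and Nfib (1.55) and the proteoglycan Ncan (1.51). Among 14 glutamate and GABA handling genes 9 were higher, among them the glutamine transporter Slc38a5 (1.56) and the GABA transaminase Abat (1.34), while Glul, which encodes glutamine synthetase, was lower (-1.53). Reactive astrocyte genes were split, with 14 of 25 higher and 6 lower, and the lower ones were led by Cxcl10 (-2.94), Lcn2 (-2.90) and Slc10a6 (-2.46). Of all 23524 genes, 4004 were called lower. Cxcl10, a chemokine, and Lcn2, a lipocalin, are also expressed by myeloid cells. In early HIE against all controls, no gene of these 4 lists was called by edgeR. At an unadjusted p-value under 0.05 there were 28 of 30, 17 of 20, 5 of 14 and 16 of 25 in the order given, against 27.3% of all genes, so that the glutamate and GABA list was near the share of all genes. The median log2 fold changes were -1.06, -1.05, -0.52 and -0.96, and DESeq2 called 16, 9, 3 and 11 lower and none higher, against 9.1% of genes called lower. Against the P6H55 controls alone, edgeR called none, and the medians were -0.32, -0.23, -0.07 and -0.23. The median of all genes was -0.08.

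On P14 no gene of the 4 lists was called by edgeR in the 3 treatment comparisons. In HIE against control, 30 of 30 other mature astrocyte genes had an estimate below 0, against 47.9% of all genes, with a median of -0.43, and 4 had an unadjusted p-value under 0.05, against 9.87% of genes. The medians were -0.21 for immature astrocyte genes, -0.35 for glutamate and GABA genes and 0.19 for reactive astrocyte genes, with 4, 5 and 5 genes at an unadjusted p-value under 0.05. DESeq2 called 1, 0 and 3 genes lower in the first 3 lists and 1 higher and 1 lower in the reactive list. Over all genes it called 2.34% in either direction. In hypoxia against control, the medians were -0.69, -0.53, -0.35 and 0.11. At an unadjusted p-value under 0.05 there were 21, 6, 4 and 2 genes, against 9.53% of all genes. DESeq2 called 2 mature genes lower and 1 reactive gene higher, against 0.783% of genes called in either direction. In HIE against hypoxia the medians were 0.23, 0.10, 0.04 and 0.13, with 1, 1, 0 and 4 genes at an unadjusted p-value under 0.05, against 4.53% of genes, and none by DESeq2. Between P6H and P4H litters the medians were -0.53, -0.39, -0.36 and -0.02. Fabp7, the brain fatty acid binding protein of radial glia, was lower in P6H (-1.70 ± 0.29, SE, edgeR adjusted p = 0.0490). It was the one gene of the 4 lists that edgeR called there, where 0.65% of all genes were called. On leaving out 1 animal at a time it was called in 2 of 8 fits, with adjusted p-values in edgeR from 0.00966 to 0.168.

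Markers of other cell types moved with the astrocyte genes in some comparisons. Between the early control litters, 14 of 14 endothelial and mural markers were higher in P6H63, led by Vtn, Cdh5 and Kdr, as were 7 of 16 neuron markers, 5 of 10 oligodendrocyte progenitor markers and 5 of 12 choroid plexus and ependymal markers, against 20.4% of all genes. Of 11 oligodendrocyte markers tested 2 were higher and 1 was lower. Border macrophage and other leukocyte markers went with the microglia markers, 9 of 12 being lower, led by S100a8, S100a9 and Cd163. Of all 23524 genes, 4004 were called lower. In early HIE against control, edgeR called no marker of these lists, and the median log2 fold change was -1.43 for choroid plexus, -0.97 for endothelial, -0.69 for oligodendrocyte progenitor and -0.68 for neuron markers, 0.11 for oligodendrocyte, 0.49 for border macrophage and 1.11 for microglia markers. DESeq2 called 8 choroid plexus, 12 endothelial, 2 progenitor, 1 neuron and 2 oligodendrocyte markers lower and 1 microglia marker higher. Of 22517 genes it called 2050 (9.1%) lower and 974 higher. Against the P6H55 controls alone, the medians of these lists were -0.79, -0.29, -0.12, -0.03, 0.07, -0.31 and 0.28 in the order given above. There edgeR called 1 choroid plexus marker lower, where 0.112% of genes were called. On P14 in HIE against control, the neuron markers had a median of -0.94 and 16 of 16 at an unadjusted p-value under 0.05, against 9.87% of genes. DESeq2 called 13 of these markers lower, against 2.34% of genes called in either direction, and edgeR called 0, against 0.00478%. In the same comparison, oligodendrocyte markers had a median of -0.67 with 12 of 12 below 0, progenitor markers -0.56 with 9 of 10 below 0, and endothelial markers 0.48 with 0 of 14 below 0 and 7 at an unadjusted p-value under 0.05. Over all genes 47.9% were below 0. For these markers edgeR made no call. DESeq2 called 1 progenitor marker lower, 2 endothelial markers higher and no oligodendrocyte marker. In hypoxia against control, the medians were -0.71 for neuron, -0.62 for choroid plexus, -0.50 for oligodendrocyte and 0.39 for endothelial markers. In HIE against hypoxia, the choroid plexus markers had a median of 0.97. Of these 12 markers, 7 had an unadjusted p-value under 0.05, against 4.53% of genes. Summed neuron markers were 253 to 375 CPM in HIE and 392 to 718 CPM in control animals of P14, while summed microglia markers were 23192 to 34616 CPM and 20254 to 27785 CPM. Between P6H and P4H litters, endothelial markers had a median of -0.47 with 14 of 14 below 0, against 50.7% of genes. Kdr was called by edgeR (-0.55, adjusted p = 0.0490), where 0.65% of genes were called, but only in 2 of 8 fits on leaving out 1 animal. No marker of these lists was at 0 in every animal of a group. The part of these cell types in the astrocyte results was not tested.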

How the data were processed

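CD11b+ cells from mouse brain were sequenced by the authors after removal of ribosomal RNA with a stranded total RNA kit. Per the study's methods and the submitters' processing notes, reads were mapped to GRCm39 with STAR and summed per gene with RSEM. The authors deposited expected counts per gene, without scaling, in 2 tables, 1 for P14 and 1 for the early animals. RSEM divides reads that match several genes. These values were rounded to integers, and libraries of the same animal were summed. Of 56691 identifiers 56017 matched GENCODE M39, which gave symbols and positions. The release used by the authors is not given in the sources used here. Comparisons were fitted in edgeR 4.0.16 (R 4.3.3) by quasi-likelihood, after TMM scaling and removal of low genes with filterByExpr. P-values were adjusted by Benjamini-Hochberg over all genes tested and called under 0.05. Only the groups compared entered a fit. SE was derived from the F statistic. DESeq2 1.42.0 was an alternative. A prior count of 2 entered the log2 CPM. The fits were also run on simulated counts drawn for each animal without a litter effect, so that run cannot speak to shared litters. P-values measure the spread between animals, of which 2 share each litter.

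The members, the gene lists and the tests were chosen with earlier results of these data known. Named genes are all members and, from each other list and comparison, up to 3 called genes with the largest absolute log2 fold change, or, where none was called, the 2 with the highest mean CPM, of which only some are given. The 10 genes most like the members were taken by the smaller r of both tables. Alternatives covered normalization, filter, tool, sex label, name prefix, repeated libraries, single litters and leaving out each animal. Levels per kilobase divide CPM by the length of the canonical transcript.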

Additional observations from a re-analysis of the deposited data

Results flagged for a closer look

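Aldh1l1 in the hypoxia animals of P14 had 1 animal far from the other 3. P6H7-16M was at 6.02 CPM, and the next value was 16.4 CPM, so that the gap was 0.879 of the range of the group. The same animal was the lowest of P14 for 7 of 9 members. Of 45 pairs of a gene and a group examined this was the only one marked, where chance marks about 1 in 20.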

How the results depend on the processing

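No paired analysis was possible because replicate numbers follow accession order and no label ties single animals of different groups. The kind of litter name, P4H or P6H, is shared by HIE and control animals of P14. With it as a covariate, the log2 fold changes of HIE against control lay between -0.67 and 0.92, with a median of -0.36. The lowest adjusted p-value in edgeR was then 0.218. The counts of called members were 0 in all but the early litter comparison (8). They became 6 with DESeq2, 8 against P6H63 controls and 0 to 7 on leaving out single animals for early HIE against control. For P6H against P4H they became 5 with DESeq2, 8 without a filter and 0 to 5 on leaving out single animals. Without a filter, the estimates stayed close to those of the main fit while calls over all genes rose to 3255. The ranges on leaving out animals were 5 to 9 for the early litters, where the lone pup is assumed to vary like the other litter, and 0 to 1 for the difference of effects. Some estimates changed sign. In early HIE against control, Slc1a3 became 0.025 with DESeq2 and with its size factors, 0.023 without a filter, 0.19 with the sex label and 0.61 against P6H55 controls, where S100b became 0.16. The difference of effects with P6H55 as the only early controls became 0.15 for Gfap, 0.20 for Slc1a2, 0.32 for Aldoc and 0.72 for S100b, in an alternative chosen after seeing the data. Against P6H8 controls, hypoxia gave 0.29 for Slc1a2 and 0.22 for Slc1a3. With P6H12 animals only, HIE over hypoxia gave -0.036 for Gfap, -0.12 for Aldh1l1 and -0.31 for Aldoc. In P6H against P4H, Sox9 became 0.067 with library size scaling. On leaving out single animals the ranges of values that changed sign were -0.21 to 0.24 for Slc1a3 in early HIE against control, -0.19 to 0.089 for Sox9, -1.02 to 0.031 for Gfap and -0.64 to 0.015 for Aqp4 in P14 HIE against control, -0.015 to 0.59 for Aldh1l1 and -0.25 to 0.34 for Aldoc in HIE over hypoxia, -0.26 to 0.084 for Sox9 in P6H against P4H, and -0.45 to 0.072 for Slc1a2 and -0.53 to 0.066 for S100b in the difference of effects. Apart from the settings whose construction leaves out animals or genes, the cause was not tested. Of 540 values on leaving out an animal 502 kept direction and side of the threshold, as did 362 of 405 under other alternatives. Over all genes, calls ranged from 10 to 13904 for early HIE against control, 0 to 490 for P14 HIE, 0 to 164 for hypoxia, 0 to 15 for HIE over hypoxia, 0 to 3255 for P6H against P4H, 4434 to 9636 for the early litters and 0 to 1200 for the difference. Library size scaling moved the median of all genes to -0.28 in early HIE against control. The 4 animals per group limit the precision.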
